A study of Mus musculus with 12 samples.

Results

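Translation initiation and elongation factors are the proteins that bring an mRNA, the initiator tRNA and the ribosomal subunits together at a start codon and then move the ribosome along the message. The genes described here were all rows of the count table whose symbol begins with *Eif1* to *Eif6* or with *Eef1* or *Eef2*, without the 9 rows whose symbol carries the pseudogene suffix -ps. They were 68 of the 24561 genes in the table, and 63 of them had enough counts to be tested. RNA was sequenced from OT-II follicular helper T (Tfh) cells, CD4+ T cells with a transgenic receptor for ovalbumin, sorted by high CXCR5 and high PD-1 from lymph nodes of mice labelled C57BL/6 at day 3 after subcutaneous NP-OVA immunization with LPS in alum. Wild-type donor cells carried CD4-Cre alone, and BCL6-insufficient donor cells carried CD4-Cre with Bcl6 fl/+, in which the T cell-expressed Cre can delete 1 allele of *Bcl6*, so that Cre was present in both groups. The cells had been transferred into SAP-deficient CD45.1 mice 1 day before immunization, and the ages of the mice and the number of donors behind these recipients were not given in the sources used here. There were 3 recipients for each genotype, each with 2 technical repeats of about 200 cells, or 12 libraries with total counts of 3343375 to 8315722.

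*Bcl6* (chromosome 16, 23965052 to 23988852 of GRCm38) had 150.0, 146 and 150.0 CPM (counts scaled to library size) in mice 1, 2 and 3 labelled BCL6-insufficient and 54.8, 75.6 and 56.9 CPM in mice 1, 2 and 3 labelled wild-type. The transcript was thus higher in the libraries labelled BCL6-insufficient, with a log2 fold change of 1.25 (SE 0.12, adjusted p = 6.30e-07) in edgeR's quasi-likelihood test. Because of this the groups keep the names on their labels throughout, and each direction rests on those names. The table has 1 row for all exons of the gene, so the floxed exons could not be read apart. *Stim1* and *Plcg1*, genes of calcium signalling that were named here after their values were seen, were both called lower under the BCL6-insufficient label. *Stim1* had 86.1, 86.5 and 87.6 CPM there and 110.3, 118 and 98.9 CPM under the wild-type label (log2 fold change -0.33, adjusted p = 0.0372), and *Plcg1* had 105, 78.9 and 82.3 CPM and 121, 136 and 139 CPM (log2 fold change -0.57, adjusted p = 0.00149). They were read from the same libraries under the same labels, so they are no separate check of the labels. *Cd4* was at 487, 394 and 336 CPM in the mice labelled BCL6-insufficient and 589, 462 and 491 CPM in the mice labelled wild-type. The genes of the sorted proteins were detected in each mouse and were called lower under the BCL6-insufficient label, *Cxcr5* at 225, 260.2 and 237 against 330.1, 314 and 307 CPM (log2 fold change -0.40, adjusted p = 0.00476) and *Pdcd1*, which encodes PD-1, at 163, 158 and 172 against 224, 201 and 234 CPM (log2 fold change -0.42, adjusted p = 0.00420). Among all 9 markers of T and Tfh cells *Cd4*, *Cxcr5*, *Pdcd1* and *Tox2* (log2 fold change -0.80, adjusted p = 8.01e-06) were called lower and *Icos* (log2 fold change 0.64, adjusted p = 0.000147) higher, and the list summed to 2220 to 2422 CPM under the BCL6-insufficient label, beside 2505 to 2632 CPM in the mice labelled wild-type. Of the 2 CD8 T cell markers, *Cd8a* was at or near 0 throughout and *Cd8b1* was at 31.9, 24.1 and 21.1 CPM under the BCL6-insufficient label and 36.4, 39.6 and 26.4 CPM under the wild-type label. The summed level of 5 cell cycle genes was 3128 to 3247 CPM in the mice labelled BCL6-insufficient and 2265 to 2641 CPM in the mice labelled wild-type. Of these 5 genes *Mki67* (log2 fold change 0.63, adjusted p = 0.000194) and *Top2a* (log2 fold change 0.54, adjusted p = 0.000209) were called higher and *Ccnb1*, *Cdk1* and *Birc5* were not called. The 8 B cell markers summed to 506 to 695 and 598 to 832 CPM, mostly from *Ighm*, and *Ms4a1* and *Pax5* were at or near 0. Mouse 2 labelled BCL6-insufficient and mouse 3 labelled wild-type stood apart in other B cell genes, with *Cd74* at 52.3 and 37.8 CPM in these mice and 4.22 to 11.4 CPM in the other 4, and *Igkc*, *Cd79a* and *Cd79b* likewise highest in these mice. Of the myeloid markers, *Lyz2* was called higher, and the 3 genes with a row summed to 15.2 to 26.4 CPM in the mice labelled BCL6-insufficient and 7.05 to 10.1 CPM in the mice labelled wild-type. The part of these markers in the results below was not tested, and in bulk RNA a smaller share of cells of a type and less RNA per cell cannot be told apart.

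In eukaryotic initiation, the eIF2 trimer carries initiator tRNA to the small ribosomal subunit, eIF1, eIF1A, eIF5 and the large eIF3 complex help it find the start codon, and eIF4E, eIF4G and the helicase eIF4A bind and unwind the capped end of the mRNA. The factor eIF5B then joins the large subunit, from which eIF6 must first leave, and eEF1A and eEF2 deliver tRNA and move the ribosome during elongation. Activated T cells are known to raise translation steeply as they grow and divide, and many mRNAs for ribosomal proteins and elongation factors begin with a tract of pyrimidines, the 5' terminal oligopyrimidine (TOP) tract, through which mTORC1 controls their translation. The 9 members known to carry such a tract were kept as a list of their own.

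Start sequences from RefSeq are shown here because the TOP tract is the sequence feature that joins the elongation factors and several eIF3 subunits to the ribosomal protein genes, and because TOP and other members can be compared by it. Windows from the RefSeq promoter table of GRCm38.p6 were kept for 52 members, with 67 annotated starts between them, and *Eif1a*, *Eif3j2* and *Eif4ebp3* were left out. Each line gives 10 bases before and 20 bases from the annotated start, 5' to 3' on the strand of the gene, and capitals mark the longest run of at least 5 bases that are C or T.
*Eef1a1*, chr9:78481705-78481734, minus strand: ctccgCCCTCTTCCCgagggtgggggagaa
*Eef1b2*, chr1:63176821-63176850, plus strand: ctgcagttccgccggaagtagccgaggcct
*Eef2*, chr10:81176621-81176650, plus strand: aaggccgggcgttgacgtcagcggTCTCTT
*Eif3f*, chr7:108934405-108934434, plus strand: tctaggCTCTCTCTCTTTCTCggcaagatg
*Eif4b*, chr15:102073763-102073792, plus strand: tcccgtcggacgccgcgccaCCCCCTCgcg
*Eif2s3x*, chrX:94212632-94212661, minus strand: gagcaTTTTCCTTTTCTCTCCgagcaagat
*Eif4a2*, chr16:23107458-23107487, plus strand: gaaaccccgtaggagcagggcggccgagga

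The first 5 lines are the TOP members that the table held, *Eif2s3x* is a member outside the TOP list with a run of 16 pyrimidines, and *Eif4a2* is the member called higher with the smallest p. A run of this kind was found at 4 of the 5 TOP members, in 31 of the 67 member windows (46.3%) and in 46.4% of the 32851 start windows of all genes, so that a run alone was no more frequent among member windows than among all windows. The annotated start may lie some bases from the start used in T cells, the runs of *Eef2* and *Eif4b* lie downstream of it, and a run is a description of these letters only.

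In the libraries labelled BCL6-insufficient, members of single complexes were called in both directions in the main comparison. *Eef1a1*, the member with the highest level per kilobase of exon, was lower, together with *Eif5a*, *Eif6*, both *Eif2s1* and *Eif2s3x* of the eIF2 trimer and 3 subunits of eIF3. The helicase gene *Eif4a2*, the joining factor *Eif5b*, the third eIF2 subunit *Eif2s2* and 2 genes for proteins that bind eIF4E were higher. Of the 63 members tested, 8 were called higher, 12 lower and 43 were not called at an adjusted p under 0.05 (edgeR quasi-likelihood test with Benjamini-Hochberg adjustment over all 12719 genes tested). Calls thus covered 31.7% of members, beside 18.0% of all genes tested. By direction, 9.17% of all genes were called higher and 8.82% lower. When a minimum of 10 counts was set for each of the 12 libraries, which keeps the better measured genes, 25.0% of 9261 genes and 21 of 61 members were called. The mice of both labels did not overlap for 25 members, 12 higher and 13 lower, which is 39.7% of members beside 34.4% of all genes. The median log2 fold change was -0.05 over members and 0.01 over all genes. No member reached a log2 fold change of 1 in size, and 10 passed 0.5. Of the 20 called members, 9 were called in each of 6 fits that left out 1 mouse, namely *Eif4a2*, *Eif5b*, *Eif2s2* and *Eif4ebp2* among those higher and *Eef1a1*, *Eif5a*, *Eif3m*, *Eif6* and *Eif3d* among those lower. *Eif2s3x* was called in 5 of these fits, *Eif4a1*, *Eif2s1*, *Eif3a* and *Eif4enif1* in 4, *Eif3l* and *Eif1b* in 3, *Eif4h* and *Eif2b2* in 2, and *Eef1b2* and *Eef1g* in 1. Among the 9 called in every fit, eIF2 had only *Eif2s2*, higher, and eIF3 only *Eif3m* and *Eif3d*, both lower. Of the 6 elongation factor genes only *Eef1a1* was among them, so none of these groups kept calls in both directions. Fewest members were called without mouse 3 labelled wild-type (10) and without mouse 1 labelled BCL6-insufficient (12). Leaving out together mouse 2 labelled BCL6-insufficient and mouse 3 labelled wild-type, which were highest in B cell genes, left 7 called, *Eif4a2*, *Eif5b*, *Eif2s2* and *Eif4ebp2* higher and *Eef1a1*, *Eif5a* and *Eif3m* lower, beside 8.45% of 12780 genes. The comparison of 2 mice a label was added after seeing the data, and all 20 members kept their sign in it. On the deposited TPM, as log2(TPM + 1), 3 members were called higher and 8 lower, beside 390 of 1305 calls higher among all genes. The p-values measure the spread between recipients, which may be technical where recipients shared a donor.

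**Figure D1:**
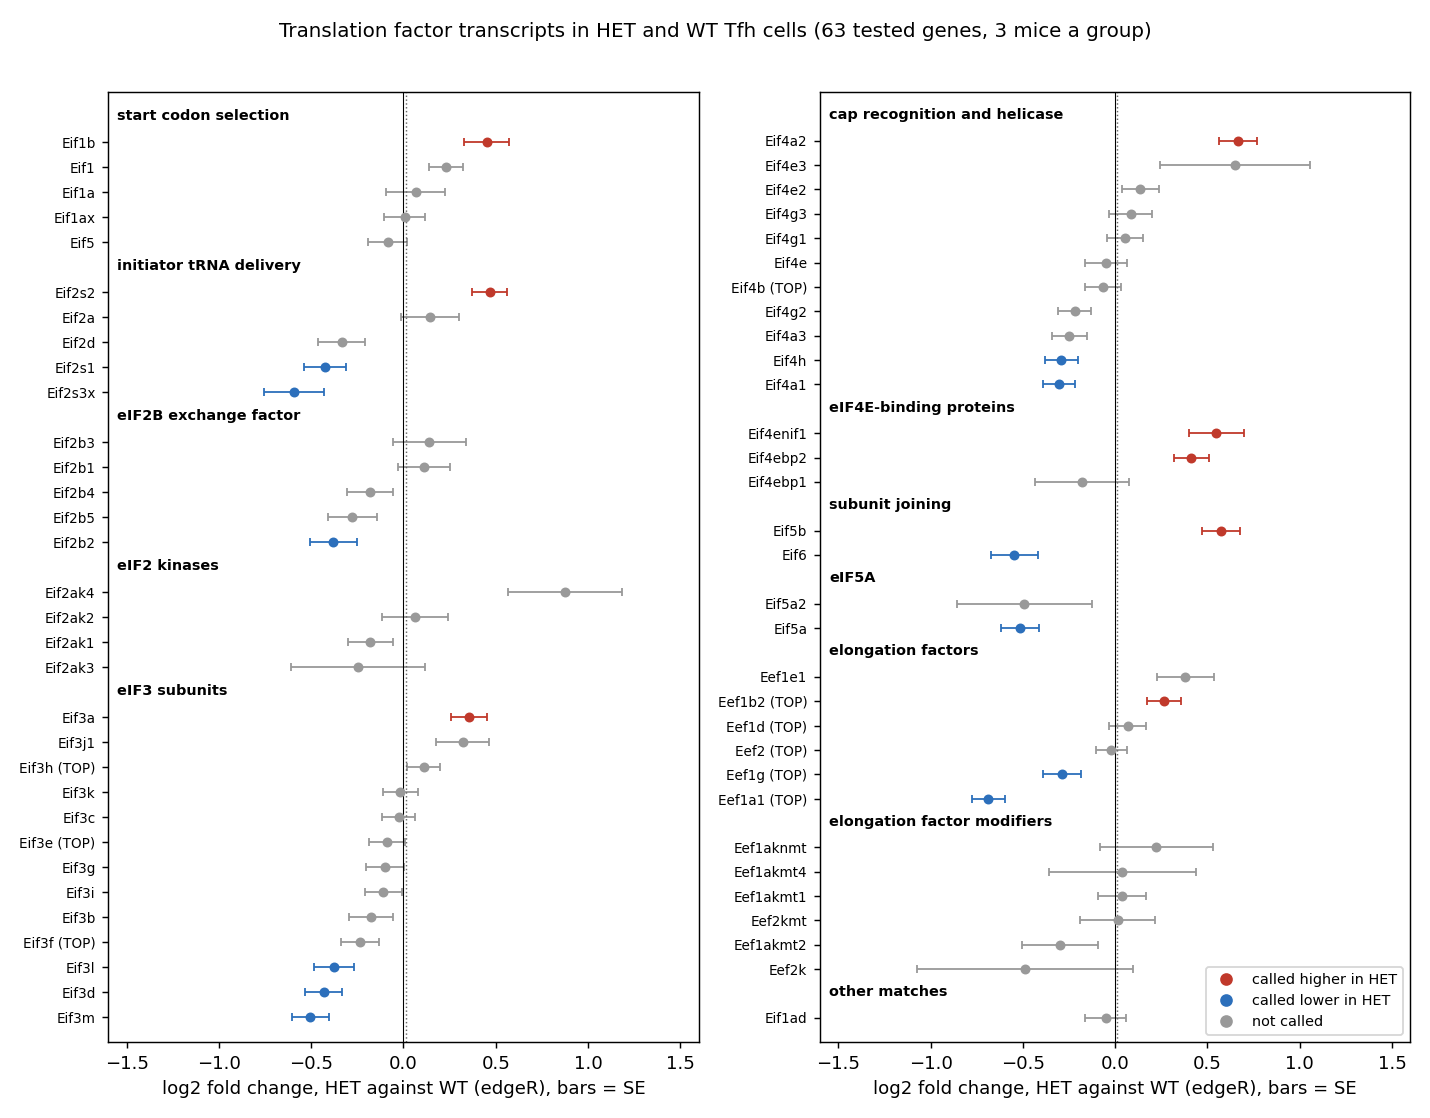
Log2 fold changes of the 63 tested members, mice labelled BCL6-insufficient (HET) against mice labelled wild-type (WT), grouped by role, with bars of 1 SE from edgeR and the dotted line at the median of all genes (0.01). The 8 red points (called higher) and 12 blue points (called lower) occur within the same groups, as in initiator tRNA delivery, eIF3 and the elongation factors.

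Of the 6 elongation factor genes, 1 was called higher and 2 lower, and only the call of *Eef1a1* was kept in most alternatives (19 of 20). *Eef1b2*, the call higher, was kept in 9 of 20 and *Eef1g* in 7 of 20. The product of *Eef1a1* (chromosome 9, 78478449 to 78489151) carries aminoacyl-tRNA to the ribosome, and its transcript was measured at 2787, 3365 and 3467 CPM in the mice labelled BCL6-insufficient and 4699.8, 5148 and 5646 CPM in the mice labelled wild-type. All 3 mice of one label were below all 3 of the other, and the log2 fold change was -0.69 (SE 0.09, adjusted p = 1.75e-05). In the 12 separate libraries the BCL6-insufficient label spanned 2777 to 3822 CPM and the wild-type label 4679 to 5704 CPM, again without overlap. Per kilobase of exon *Eef1a1* stood first of all members, at 2072 CPM per kb in the mice labelled wild-type and 1286 CPM per kb in the mice labelled BCL6-insufficient. It held 20.4% to 22.7% of all member counts in the mice labelled BCL6-insufficient and 28.2% to 30.5% in the mice labelled wild-type. *Eef1a1* has near-identical processed pseudogenes, so how shared reads were counted could move its level.

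The nucleotide on eEF1A is exchanged by a complex built from the products of *Eef1b2*, *Eef1d* and *Eef1g*, and the 3 transcripts did not move alike. For *Eef1b2*, the exchange subunit, the values were 569, 628 and 676 CPM under the BCL6-insufficient label and 479, 529 and 549.6 CPM under the wild-type label, without overlap, and the log2 fold change of 0.27 (SE 0.09, adjusted p = 0.0487) was just past the threshold. *Eef1g*, the scaffold subunit, stood at 456, 489 and 595 CPM and 594, 599.5 and 686 CPM respectively, the groups overlapped by 1 mouse, and the log2 fold change of -0.29 (SE 0.10, adjusted p = 0.0498) was also just past it. *Eef1d*, a further exchange subunit, was at 317, 347 and 417 CPM and 340.1, 336 and 355 CPM, and its difference did not pass (log2 fold change 0.07, adjusted p = 0.700). The translocase gene *Eef2* had 1208, 1306 and 1375 CPM under the BCL6-insufficient label and 1259.6, 1296 and 1392 CPM under the wild-type label, with overlapping mice and a log2 fold change of -0.02 (SE 0.08, adjusted p = 0.895). *Eef1e1*, whose product belongs to the tRNA synthetase complex, had a higher value in every mouse labelled BCL6-insufficient and did not pass the adjusted threshold (log2 fold change 0.38, adjusted p = 0.0900). Within mice, the log2 ratio of *Eef1b2* to *Eef1a1* averaged -2.36 ± 0.06 (SD, n = 3) under the BCL6-insufficient label and -3.31 ± 0.04 (SD, n = 3) under the wild-type label. This pair was chosen after the values were seen, and its ratio is given without a test.

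None of the 6 tested genes for enzymes that modify or phosphorylate elongation factors was called. Their log2 fold changes ran from -0.49 for *Eef2k*, the kinase of eEF2, at 0.874 to 2.13 CPM, to 0.22 for the methyltransferase gene *Eef1aknmt*. The 95% interval of the *Eef2k* log2 fold change was wide, from -1.64 to 0.66. *Eef1akmt3* was at 0 in every library.

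The 3 subunits of the eIF2 trimer were all called, and not in one direction. *Eif2s1* encodes the alpha subunit, which carries the serine phosphorylated under stress, and had 112, 138 and 145 CPM in the mice labelled BCL6-insufficient and 161, 170.3 and 201 CPM in the mice labelled wild-type, with a log2 fold change of -0.43 (SE 0.11, adjusted p = 0.0112). *Eif2s3x*, the X-linked gene of the gamma subunit that binds tRNA, had 24.5, 24.7 and 24.4 CPM and 37.6, 30.9 and 42.6 CPM respectively, with a log2 fold change of -0.59 (SE 0.16, adjusted p = 0.0133). *Eif2s2* (chromosome 2, 154871410 to 154892935) encodes the beta subunit, and moved the other way, from 181, 203 and 191 CPM under the wild-type label to 257, 258 and 282 CPM under the BCL6-insufficient label, a log2 fold change of 0.47 (SE 0.10, adjusted p = 0.00140). None of the 3 overlapped between the labels. The call was kept in 17 of 20 alternatives for *Eif2s2*, 15 for *Eif2s3x* and 14 for *Eif2s1*. Without mouse 3 labelled wild-type, *Eif2s1* (log2 fold change -0.33, adjusted p = 0.0819) and *Eif2s3x* (log2 fold change -0.49, adjusted p = 0.0916) were not called in edgeR. Within each mouse the log2 ratio of *Eif2s2* to *Eif2s1* was 0.90 to 1.19 under the BCL6-insufficient label and -0.07 to 0.26 under the wild-type label. These ratios were chosen after the values were seen and are given without a test. Of the factors that deliver initiator tRNA without the trimer, *Eif2d* was lower in each mouse labelled BCL6-insufficient without passing the threshold (log2 fold change -0.34, adjusted p = 0.0757), and *Eif2a* overlapped (log2 fold change 0.14, adjusted p = 0.577).

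The exchange factor eIF2B reloads eIF2 with GTP. One of its 5 subunit genes was called, *Eif2b2*, with 56.4, 58.2 and 72.2 CPM under the BCL6-insufficient label and 70.9, 86.0 and 85.9 CPM under the wild-type label and a log2 fold change of -0.38 (SE 0.13, adjusted p = 0.0405), although the highest mouse of the first label exceeded the lowest of the other. The other 4 ranged from -0.28 for *Eif2b5* (adjusted p = 0.157) to 0.14 for *Eif2b3* (adjusted p = 0.688). The call of *Eif2b2* was kept in 8 of 20 alternatives. 

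The 4 kinases that phosphorylate eIF2 and so lower eIF2B activity were not called in the main comparison. *Eif2ak4*, the amino acid sensor GCN2, had 8.44, 8.04 and 8.64 CPM in the mice labelled BCL6-insufficient and 5.22, 3.64 and 4.81 CPM in the mice labelled wild-type, without overlap, and its log2 fold change of 0.88 (SE 0.31, adjusted p = 0.0504) lay just outside the threshold and was the largest of any member. In 7 of the 20 alternatives it was called higher, with adjusted p = 0.0308 in DESeq2 and 0.0422 with upper-quartile scaling, and over the 20 its adjusted p ran from 0.0173 to 0.824. The repeats of a mouse could differ widely at this level, with 15.6 CPM in repeat 2 and 3.04 CPM in repeat 1 of mouse 2 labelled BCL6-insufficient. Without that mouse the log2 fold change was 0.90. The log2 fold change was 0.26 from the first repeats alone and 1.56 from the second repeats alone. *Eif2ak1*, the heme-regulated kinase, had 60.7, 75.1 and 70.7 CPM and 78.4, 83.8 and 71.7 CPM under the BCL6-insufficient and wild-type labels (log2 fold change -0.18, adjusted p = 0.336). *Eif2ak2*, the kinase PKR that senses double-stranded RNA, had 21.3, 25.7 and 21.8 CPM and 20.9, 23.8 and 21.2 CPM in the same order (log2 fold change 0.06, adjusted p = 0.854). *Eif2ak3*, the endoplasmic reticulum kinase PERK, had 5.82, 8.04 and 2.78 CPM and 5.86, 8.53 and 5.48 CPM (log2 fold change -0.25, adjusted p = 0.698). The mice overlapped for the last 3 kinases.

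Among the factors that select the start codon, 1 of 5 was called. *Eif1b* (chromosome 9, 120492232 to 120495330), a close paralogue of eIF1, had 126, 102 and 116 CPM in the mice labelled BCL6-insufficient and 76.6, 98.5 and 76.0 CPM in the mice labelled wild-type, and its log2 fold change was 0.45 (SE 0.12, adjusted p = 0.0120). The gap between its groups was small, 102 CPM in the lowest mouse of one label against 98.5 CPM in the highest of the other. *Eif1*, the main eIF1 gene, had 505, 524 and 569.6 CPM and 409.6, 481 and 472 CPM respectively, also without overlap, and did not pass (log2 fold change 0.23, adjusted p = 0.0872). *Eif1a* had 30.5, 32.4 and 40.6 CPM and 32.4, 30.5 and 35.7 CPM, and *Eif1ax*, its X-linked paralogue, 110.2, 127 and 147 CPM and 121, 135 and 126 CPM. Both eIF1A genes overlapped between labels, with log2 fold changes of 0.07 (adjusted p = 0.821) and 0.01 (adjusted p = 0.980). *Eif5*, which makes eIF2 hydrolyse its GTP, did not pass either (log2 fold change -0.09, adjusted p = 0.641).

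The eIF3 complex, the scaffold on the small subunit, gave 1 call higher and 3 lower of 13 tested subunits, with 10 of 13 log2 fold changes below 0 and a median of -0.10. *Eif3m* (chromosome 2, 104999656 to 105017080) had 165, 173 and 203 CPM under the BCL6-insufficient label and 242, 253 and 272 CPM under the wild-type label, a log2 fold change of -0.50 (SE 0.10, adjusted p = 0.00125). *Eif3d* (chromosome 15, 77958998 to 77970813), whose product can itself bind a cap, had 137, 135 and 159 CPM and 188, 189 and 206 CPM respectively, a log2 fold change of -0.43 (SE 0.10, adjusted p = 0.00433). For both genes the mice were separated by label, and mouse 3 labelled BCL6-insufficient was the closest to the wild-type label. *Eif3l* also was lower with separate mice (log2 fold change -0.38, adjusted p = 0.0162).

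Against these, *Eif3a*, the largest subunit and a core of the complex, was higher, at 237, 241 and 253 CPM in the mice labelled BCL6-insufficient and 185, 211 and 176 CPM in the mice labelled wild-type, with a log2 fold change of 0.35 (SE 0.10, adjusted p = 0.0140). The log2 ratio of *Eif3a* to *Eif3m* was 0.44 ± 0.11 (SD, n = 3) within mice labelled BCL6-insufficient and -0.43 ± 0.18 (SD, n = 3) within mice labelled wild-type. The pair was chosen after the values were seen, and its ratio was not tested. The TOP members of the complex were not called. *Eif3e* had 182, 189.6 and 215 CPM and 199, 201 and 223 CPM under the BCL6-insufficient and wild-type labels (log2 fold change -0.09, adjusted p = 0.595), and *Eif3h* had 402, 460.0 and 455 CPM and 405, 416 and 399.9 CPM (log2 fold change 0.11, adjusted p = 0.445). *Eif3f*, whose window holds the 15-base pyrimidine run printed above, had 240.4, 269 and 293 CPM and 346, 274 and 326 CPM (log2 fold change -0.24, adjusted p = 0.119). The mice of *Eif3e* and *Eif3f* overlapped, as did those of *Eif3h*. *Eif3j1*, a loosely bound subunit, was higher in each mouse labelled BCL6-insufficient without passing (log2 fold change 0.32, adjusted p = 0.127), and shares sequence with *Eif3j2*, which was too low to test. The remaining *Eif3b*, *Eif3c*, *Eif3g*, *Eif3i* and *Eif3k* ranged from -0.18 to -0.02 and were not called.

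The cap-binding and helicase group gave 1 call higher and 2 lower of 11 genes. *Eif4a2* (chromosome 16, 23107444 to 23114136), 1 of 2 genes for the eIF4A helicase, had 222, 210.1 and 223 CPM in the mice labelled BCL6-insufficient and 135, 155 and 124 CPM in the mice labelled wild-type, with a log2 fold change of 0.67 (SE 0.10, adjusted p = 0.000109). It was the only one of the 20 called members that was called in the same direction in all 20 alternative analyses tried. Its paralogue *Eif4a1* fell, with 361, 370.3 and 391 CPM and 459, 459.6 and 465 CPM respectively and a log2 fold change of -0.30 (SE 0.09, adjusted p = 0.0171). *Eif4h*, which stimulates the helicase, was lower too (log2 fold change -0.29, adjusted p = 0.0261), but lost its call with GC and length trends removed (log2 fold change -0.18, adjusted p = 0.190). The cap-binding gene *Eif4e* had 108, 99.5 and 127 CPM and 117, 124 and 106 CPM under the BCL6-insufficient and wild-type labels, with overlap (log2 fold change -0.05, adjusted p = 0.804), and its relative *Eif4e2*, which encodes a repressive cap-binding protein, had 194, 169.6 and 183 CPM and 155, 159 and 183 CPM (log2 fold change 0.14, adjusted p = 0.390). The scaffold genes *Eif4g1*, with 187, 195 and 202 CPM and 196, 195 and 172 CPM, and *Eif4g3*, with 115, 107 and 123 CPM and 120.3, 115 and 89.6 CPM, overlapped between the labels and were not called (adjusted p = 0.763 and 0.681). Nor was *Eif4b*, a helicase cofactor on the TOP list, at 150.2, 156 and 161 CPM and 154, 161 and 174 CPM (log2 fold change -0.07, adjusted p = 0.698). *Eif4g2* and *Eif4a3*, the latter a helicase of the exon junction complex, were lower in each mouse labelled BCL6-insufficient without passing (log2 fold change -0.22, adjusted p = 0.0976 and log2 fold change -0.25, adjusted p = 0.0723). They were called lower in 6 and 5 of the 20 alternatives. *Eif4e3*, at 2.33 to 8.30 CPM, did not pass either (log2 fold change 0.65, adjusted p = 0.294). Its log2 fold change ran from 0.33 to 1.43 over the 6 fits without 1 mouse, with a call in 1.

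*Eif4a2* lies on the same chromosome as *Bcl6*, 851 kb from it, while the other 4 tested members of chromosome 16 lie 3270 to 18700 kb away. Those 4, *Eif4g1*, *Eef1akmt4*, *Eif2b5* and *Eef2kmt*, had log2 fold changes from -0.28 to 0.05 and none was called. The source strain of the DNA around the floxed allele is not given in the sources used here, and the part of position in the *Eif4a2* result was not tested.

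**Figure D2:**
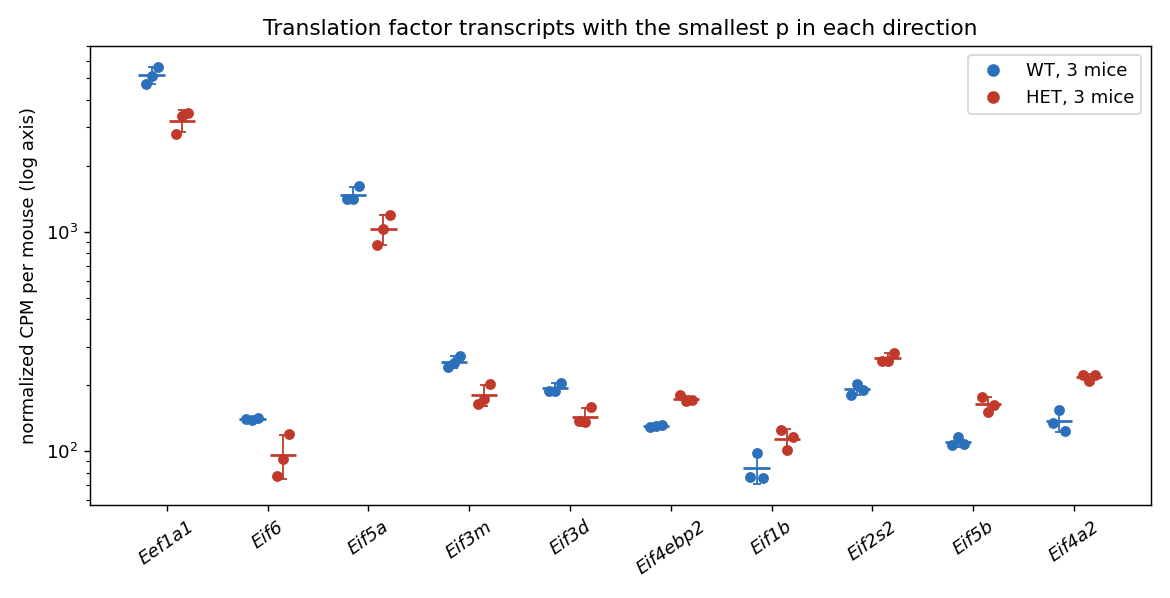
Normalized CPM (log axis) of 10 called members with separate mice, the 5 higher and the 5 lower ones that had the smallest p, with points for the 3 mice of each label, horizontal lines for the mean and bars of 1 SD. The blue (wild-type label) and red (BCL6-insufficient label) points are separate for each gene, and *Eef1a1*, between 2787 and 5646 CPM, lies above the other 9 genes.

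The proteins that bind eIF4E and keep it from eIF4G gave 2 calls higher of 3 tested genes and none lower. *Eif4ebp2* (chromosome 10, 61428491 to 61452661) had 180.4, 170.3 and 171 CPM in the mice labelled BCL6-insufficient and 129.6, 130.3 and 132 CPM in the mice labelled wild-type, and its log2 fold change was 0.41 (SE 0.10, adjusted p = 0.00421). Each mouse labelled BCL6-insufficient was above each mouse labelled wild-type. *Eif4enif1* encodes the eIF4E transporter, which binds eIF4E in the nucleus and in P-bodies, and had 67.3, 52.6 and 60.7 CPM and 49.1, 41.7 and 33.0 CPM respectively, a log2 fold change of 0.55 (SE 0.15, adjusted p = 0.0128). *Eif4ebp1*, the mTORC1 substrate most often studied, was far lower in level, with 14.6, 12.8 and 10.4 CPM under the BCL6-insufficient label and 12.3, 10.04 and 20.4 CPM under the wild-type label, and the labels overlapped (log2 fold change -0.18, adjusted p = 0.684). *Eif4ebp3* had no count in 5 of the 6 mice.

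Both genes that act at the joining of the subunits were called, in opposite directions. *Eif5b* (chromosome 1, 37998010 to 38055579), the GTPase that joins the subunits, rose, with 177, 152 and 163 CPM under the BCL6-insufficient label and 107, 116 and 108 CPM under the wild-type label and a log2 fold change of 0.57 (SE 0.10, adjusted p = 0.000460). *Eif6* (chromosome 2, 155819832 to 155826925), which holds the large subunit apart until it is mature, fell, with 76.9, 92.2 and 120.1 CPM and 141, 139 and 142 CPM respectively and a log2 fold change of -0.55 (SE 0.13, adjusted p = 0.00428). The mice labelled BCL6-insufficient spread more for *Eif6* than the mice labelled wild-type, with mouse 3 of the first label the closest to the second. The log2 ratio of *Eif5b* to *Eif6* within a mouse was 0.44 to 1.20 under the BCL6-insufficient label and -0.40 to -0.26 under the wild-type label. It was formed after the values were seen and is given without a test.

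The hypusine-bearing factor eIF5A relieves ribosomes that stall on difficult peptides. *Eif5a* (chromosome 11, 69916714 to 69921958), the second member by level per kilobase at 621 CPM per kb under the wild-type label, had 867, 1034 and 1196 CPM in the mice labelled BCL6-insufficient and 1406, 1405 and 1616 CPM in the mice labelled wild-type, with a log2 fold change of -0.52 (SE 0.10, adjusted p = 0.00103). *Eif5a2*, its tissue-restricted paralogue, had 3.20, 3.50 and 8.22 CPM and 7.51, 6.22 and 7.06 CPM respectively, and did not pass at this depth (log2 fold change -0.49, adjusted p = 0.387). *Eif1ad*, which matched by symbol but is an eIF1A-domain protein of other function, was not called (log2 fold change -0.05, adjusted p = 0.795), and the *Eif4a3*-like rows *Eif4a3l1* and *Eif4a3l2* were too low to test.

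The 7 pairs of paralogues with both genes tested were compared within mice, which removes the scaling of each library. The log2 ratio of *Eif4a1* to *Eif4a2* was 0.70, 0.82 and 0.81 in the mice labelled BCL6-insufficient and 1.77, 1.57 and 1.91 in the mice labelled wild-type, a difference of -0.97. The mice were separated, and the two-sided exact permutation test gave p = 0.1, the smallest that 3 mice against 3 can give (adjusted over 7 pairs, p = 0.525). The other 6 pairs differed by -0.54 for *Eif4ebp1*/*Eif4ebp2* to 0.09 for *Eif5a*/*Eif5a2*, with exact permutation p of 0.2 to 0.8 and overlapping mice. No pair could pass a threshold of 0.05 in this design.

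**Figure D3:**
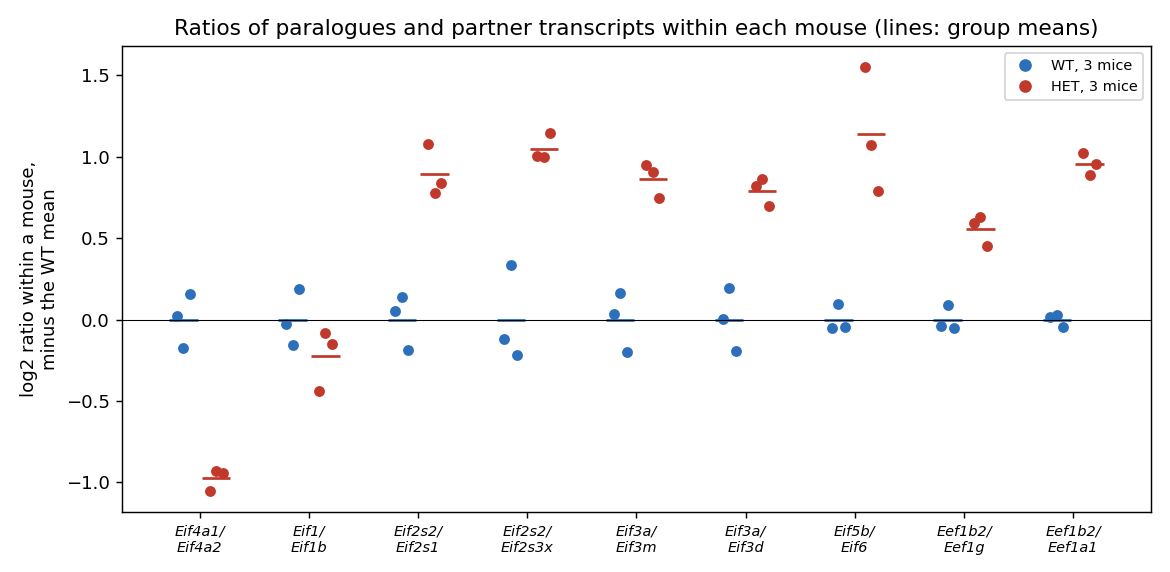
Log2 ratios of 2 transcripts within each mouse, shown relative to the wild-type mean of that ratio, for 2 paralogue pairs and 7 pairs of partners in a complex or step, with points for mice and short lines for group means. Except for *Eif1*/*Eif1b*, the mice labelled BCL6-insufficient (red) do not overlap the mice labelled wild-type (blue), and the partner pairs were chosen after the values were seen.

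Members on the TOP list and the other members gave similar shares of calls, 3 of 9 (1 higher, 2 lower) and 17 of 54 (7 higher, 10 lower), with median log2 fold changes of -0.07 and -0.04. Of the cytosolic ribosomal protein genes, whose mRNAs carry TOP tracts too, 55 of 87 tested were called higher and 1 lower, with a median log2 fold change of 0.42. The TOP translation factors therefore did not show the direction of the ribosomal protein genes in count or median, and the difference between these lists was not tested.

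The summed level of all members was 14868 ± 1194 CPM (SD, n = 3) under the BCL6-insufficient label and 17513 ± 943 CPM (SD, n = 3) under the wild-type label, a difference of -0.24 in mean log2 level that separated the mice (two-sided exact permutation p = 0.1, the smallest possible here). Without *Eef1a1* the sums were 11662 ± 871 CPM (SD, n = 3) and 12348 ± 474 CPM (SD, n = 3), the difference was -0.08 and the mice overlapped (exact permutation p = 0.3). Members took 1.34% to 1.55% of the counts of a mouse under the BCL6-insufficient label and 1.71% to 1.90% under the wild-type label.

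The technical repeats of each mouse were also compared on their own. Over the 62 members tested in both, the log2 fold change had the same sign from the first repeats alone and the second repeats alone in 43, and the values correlated across members with Pearson r = 0.588 and Spearman rho = 0.631, a description of genes measured in the same cells' RNA. The 20 called members had the same sign in both, which the calls on their sum favour and which is no separate support. *Eef1a1* was at -0.65 and -0.72, *Eif4a2* at 0.66 and 0.69, and *Eif4e*, which was not called, at 0.33 and -0.32.

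**Figure D4:**
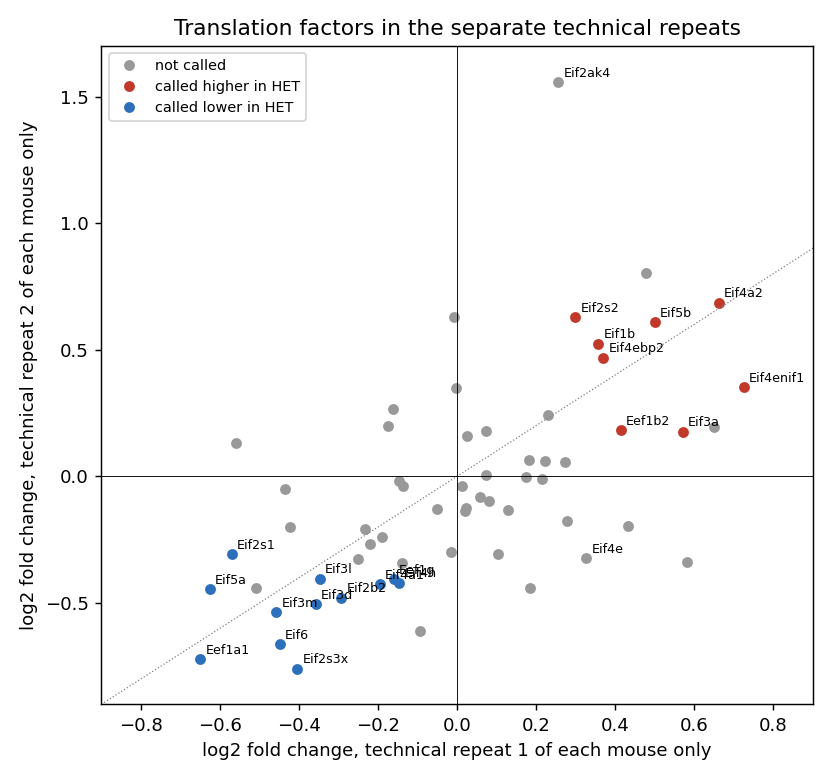
Log2 fold change of each member from the first technical repeats alone (horizontal axis) and from the second alone (vertical axis), colored by the call from the summed counts, with a dotted line of equal values. The 20 called members lie in the 2 quadrants of equal sign, as calls on the summed repeats favour, while *Eif2ak4* is at 0.26 and 1.56.

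The members called higher were longer by their median than those called lower, given here without a test. The median summed exon length was 6077 bases for the 8 members called higher, 3170.5 bases for the 12 called lower and 4168 bases for the 43 not called, and the median GC content was 45.4%, 50.6% and 49.8%. Across all 63 tested members the log2 fold change correlated with log2 exon length at Pearson r = 0.202 and with GC content at r = -0.152, which are descriptions across genes of shared libraries. With trends in GC content and length removed in each mouse, 17 of the 20 called members were still called in the same direction. The 3 that were not, *Eif4h*, *Eef1g* and *Eif2b2*, were all among those called lower. Their log2 fold changes were then -0.18, -0.20 and -0.29. In the same fit *Eif1* and *Eif2ak4* gained a call higher and *Eif4g2* a call lower.

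Other genes of translation were read from a list of 68 that are not members, all of them tested. Of these 5 were called higher and 8 lower, or 19.1% beside 18.0% of all genes. The 2 calls of smallest p in each direction were *Pabpc1*, the main poly(A)-binding protein, with a log2 fold change of 0.64 (SE 0.10, adjusted p = 0.000117), and *Larp1*, which binds TOP mRNAs, with 0.97 (SE 0.16, adjusted p = 0.000164), both higher, and the tRNA synthetase genes *Dars* and *Hars*, both lower. *Pabpc1* had 770.3, 845 and 927 CPM under the BCL6-insufficient label and 503, 625 and 497 CPM under the wild-type label. *Larp1* had 56.9, 48.4 and 52.6 CPM under the BCL6-insufficient label and 32.2, 26.2 and 22.3 CPM under the wild-type label. *Dars* had 44.4, 47.7 and 52.2 CPM and 96.3, 90.7 and 99.8 CPM respectively, a log2 fold change of -0.99 (SE 0.12, adjusted p = 5.02e-06), and *Hars* had 68.9, 76.2 and 75.9 CPM and 99.4, 97.3 and 103 CPM, a log2 fold change of -0.44 (SE 0.11, adjusted p = 0.00698). Among 22 genes of the cytosolic tRNA synthetases, which charge tRNA for elongation, and of the scaffold proteins of their complex (*Aimp1* and *Aimp2*), 6 were called lower and none higher, 19 log2 fold changes were below 0, and the median was -0.14. None of 8 termination and recycling genes was called.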

How the data were processed

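RNA-seq libraries (SMART-Seq2, about 200 cells each) of 6 recipient mice, 2 technical repeats a mouse, were compared. The authors aligned reads to GRCm38 (mm10) with HISAT2 2.2.1, per the labels, and deposited whole-number read counts for each gene, made with HTSeq-count. They also deposited TPM values, made by the authors from counts. The annotation release and the strand setting are not given in the sources used here, so reads of overlapping genes and processed pseudogenes cannot be assigned with certainty.

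Counts of the repeats were summed per mouse, and labels HET (BCL6-insufficient) and WT (wild-type) were tested by the quasi-likelihood method of edgeR 4.0.16 under R 4.3.3, after filterByExpr and TMM scaling, with p adjusted by Benjamini-Hochberg over 12719 genes and a threshold of 0.05. CPM are scaled by TMM. Coordinates, exon lengths and GC content came from GENCODE annotation of GRCm38, which matched all 68 members. Summed levels and paralogue ratios were compared by exact permutation over mice. The steps were tested on simulated data. The members, roles, TOP list, pathway list and markers were chosen with earlier results of these data known. Genes named with values in every mouse were the TOP members, the 5 called members of smallest p with separate mice in each direction, the paralogue pairs, the eIF2 kinases and the eIF4E-binding proteins, with *Bcl6* first, and 2 called pathway genes in each direction. Values of other genes in every mouse were added after they were seen. Alternatives were DESeq2 1.42.0, limma 3.58.1 (voom on 12 libraries, and log2 TPM with a pseudocount of 1 or 0.1), other scalings and filters, single repeats, GC and length trends removed with mgcv 1.9.3, a replicate block and leaving out each mouse. No molecular identifiers were used, so reads need not be separate molecules and depth speaks to counting error only.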

Additional observations from a re-analysis of the deposited data

Results flagged for a closer look

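Over the 6 libraries of each label, 2 of 68 groups examined held a library set apart from the other 5 by the gap to its neighbour, where chance would give about 1 group in 20. *Eif4ebp2* was at 212 CPM in repeat 1 of mouse 1 labelled BCL6-insufficient, while the other 5 libraries of that label lay between 158 and 172 CPM. The libraries of the wild-type label were lower than all 6 of these, at 113 to 152 CPM, so the direction of *Eif4ebp2* does not turn on that library. *Eif4e* was at 168 CPM in repeat 1 of mouse 3 labelled BCL6-insufficient, while the other 5 libraries of that label lay between 94.0 and 111 CPM. That library had the lowest total count of all 12, and *Eif4e* was not called.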

How the results depend on the processing

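The main analysis called 20 members, 8 higher and 12 lower. The count of calls was within 1.5 times of this with DESeq2 (24), both other scalings, both filters, voom (25) and the second repeats alone (20). Of the 20 members of the main analysis, 15 were called again from the second repeats alone and 18 with either other scaling. All 20 were called again with DESeq2, voom and the filter of 10 counts, and 19 with the filter of 1 count. The first repeats alone called 9 members, 5 higher and 4 lower. On log2(TPM + 1) the count was 11, of which 3 were higher, on log2(TPM + 0.1) it was 10, of which 2 were higher, and on log2(TPM + 1) over all genes it was 1, higher, with 0 lower. Leaving out 1 mouse gave 10 to 21 called, 4 to 8 higher and 6 to 14 lower, with 10 when mouse 3 labelled wild-type was left out (4 higher, 6 lower), 12 without mouse 1 labelled BCL6-insufficient (6 lower) and 7 lower without mouse 2 of that label. Without mouse 1 labelled wild-type 5 were higher. Leaving out both mouse 2 labelled BCL6-insufficient and mouse 3 labelled wild-type, a choice made after seeing the data, gave 7 called, 4 higher and 3 lower. The median log2 fold change of members moved to -0.14 on log2(TPM + 1), also over all genes, and to -0.18 on log2(TPM + 0.1), a scale on which the median of all genes is -0.11. Same-numbered mice did not deviate together (correlations of 0.10, -0.03 and 0.04), and the replicate block gave 23 called members, 10 higher and 13 lower, among them all 20, with *Eif1*, *Eif2ak4* and *Eif4a3* gained. The cause of these differences was not tested. No alternative planned was left out.

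Direction reversed only for members and ratios that were not called. Of the 25 members that reversed in some alternative, values are given for the 12 named by the rule. The other 13, among them *Eif3b*, *Eif3c*, *Eif3i* and *Eif1ad*, reversed 59 times in all, in 0 cases with an adjusted p under 0.05. *Eif3b* was at 0.18 from the first repeats and -0.44 (adjusted p = 0.0389, edgeR) from the second. From the first repeats alone the log2 difference was 0.23 for *Eif4e*/*Eif4e2*, 0.23 for *Eif4g1*/*Eif4g3*, 0.082 for *Eef2*, 0.023 for *Eif4b*, -0.17 for *Eif1ax*, 0.33 for *Eif4e* and -0.16 for *Eif4g3*. From the second alone it was -0.21 for *Eif1a*/*Eif1ax*, -0.00051 for *Eif5a*/*Eif5a2*, -0.0013 for *Eef1d*, -0.010 for *Eif1a*, -0.34 for *Eif2ak2* and 0.13 for *Eif2ak3*. On log2(TPM + 1), with the same values over all genes, it was -0.042 for *Eef1d*, -0.0026 for *Eif3h*, -0.011 for *Eif1a*, -0.11 for *Eif1ax*, -0.080 for *Eif4g1*, -0.050 for *Eif4g3* and -0.044 for *Eif2ak2*, and on log2(TPM + 0.1) it was -0.042, -0.0029, -0.013, -0.11, -0.082, -0.062 and -0.052 in that order. With GC and length trends removed it was 0.14 for *Eef2*, 0.0070 for *Eif4b*, -0.012 for *Eif1a* and -0.089 for *Eif1ax*, and with the replicate block added 0.14, 0.0084, -0.017 and -0.099. *Eef2* was at 0.012 with upper-quartile scaling, and *Eif1ax* at -0.0097 with all genes of at least 1 count, -0.019 with voom and -0.00038 with the replicate block. Leaving out 1 mouse gave -0.033 to 0.13 for *Eif1a*/*Eif1ax*, -0.089 to 0.032 for *Eif4g1*/*Eif4g3*, -0.10 to 0.41 for *Eif5a*/*Eif5a2*, -0.053 to 0.15 for *Eef1d*, -0.069 to 0.025 for *Eef2*, -0.068 to 0.15 for *Eif1a*, -0.11 to 0.10 for *Eif1ax*, -0.16 to 0.024 for *Eif4e*, -0.013 to 0.078 for *Eif4g1*, -0.043 to 0.16 for *Eif4g3*, -0.39 to 0.17 for *Eif4ebp1*, -0.029 to 0.11 for *Eif2ak2* and -0.60 to 0.061 for *Eif2ak3*.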

Other observations

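Mitochondrial translation has its own elongation factors, and 2 of 6 genes for its factors were called lower in the mice labelled BCL6-insufficient and none higher. The calls were 33.3% of this short list, beside 18.0% of all genes called in either direction and 8.82% called lower. *Tufm*, the mitochondrial counterpart of eEF1A, had 59.4, 66.6 and 69.1 CPM in the mice labelled BCL6-insufficient and 97.8, 73.7 and 108 CPM in the mice labelled wild-type, without overlap, and its log2 fold change was -0.52 (SE 0.13, adjusted p = 0.00825). *Tsfm*, its exchange factor, had a log2 fold change of -0.44 (SE 0.15, adjusted p = 0.0395). Of 6 genes of the integrated stress response, *Atf4* was called higher and the other 5 were not called, or 16.7% beside 18.0% of all genes. *Atf4* encodes the transcription factor whose translation rises when eIF2 is phosphorylated. Its transcript was at 158, 144 and 152 CPM under the BCL6-insufficient label and 114, 129 and 116 CPM under the wild-type label (log2 fold change 0.34, adjusted p = 0.0220). *Pabpc4*, a second poly(A)-binding protein gene, was called higher (log2 fold change 0.63, adjusted p = 0.0140), as was *Dph3* (log2 fold change 0.43, adjusted p = 0.0172), which acts in the synthesis of diphthamide on eEF2. These genes were named after their values were seen.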
